A study of Homo sapiens with 3 samples.

Results

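The genes described here are 52 components of the bone morphogenetic protein (BMP), transforming growth factor beta (TGF-beta) and activin pathway, out of 59152 gene names in the deposited table. They were taken by gene symbol through GENCODE release 29, with no threshold on any value, and all 52 were found: 19 ligands, 11 type I and type II receptors, 2 co-receptors, 5 receptor-regulated SMADs, the common SMAD4, 2 inhibitory SMADs, the decoy receptor BAMBI with 2 ubiquitin ligases, 4 secreted antagonists, 4 latent TGF-beta binding proteins and 1 protease. The samples were 3 RNA-seq libraries of SH-SY5Y, an adherent human neuroblastoma cell line, kept in medium with serum, with no treatment named in the labels. Each came from its own flask at about 60% confluency. Errors (SD, n = 3) and p-values therefore rest on the spread between flasks of 1 line. In limma each gene's spread is drawn towards that of all genes tested, which sets much of the SE and p-value of steady genes. There was 1 group and no second condition, and the comparisons are therefore between each gene and a fixed level and between genes of the same libraries. The deposited unit, FPKM, is a read density that takes account of transcript length and of library size, so levels of different genes can be set side by side per length.

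In this pathway a secreted dimeric ligand brings together type II and type I receptor kinases, and the type I kinase phosphorylates receptor-regulated SMADs, which enter the nucleus with SMAD4. BMPs act mainly through SMAD1, SMAD5 and SMAD9, whereas TGF-beta and activins act mainly through SMAD2 and SMAD3. BMPs made by the dorsal aorta induce the sympathoadrenal lineage from neural crest cells, the lineage from which neuroblastoma arises.

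The labelled cell type was checked first. Of 10 sympathoadrenal marker genes 9 were called above 1 FPKM, from STMN2, a neuronal microtubule regulator, at 2405 ± 71.9 FPKM downwards, and TH, the rate-limiting enzyme of catecholamine synthesis, was called neither above nor below at 1.12 ± 0.07 FPKM. No endothelial marker (0 of 7) and no blood or immune marker (0 of 6) was called above; the highest of the latter was CD14, a monocyte receptor, at 0.480 ± 0.097 FPKM, and CD3E, a T cell receptor subunit, was listed at 0. Among 7 fibroblast markers 5 were called above, with THY1, a surface glycoprotein that neurons also carry, highest at 60.1 ± 1.97 FPKM and COL3A1, a fibrillar collagen, lowest at 0.919 ± 0.676 FPKM. Also called above were PDGFRB at 29.8 ± 1.9, DCN at 14.7 ± 2.1, LUM at 3.95 ± 0.63 and COL1A1 at 3.785 ± 0.456 FPKM. The fibroblast markers summed to 109.9 to 121.2 FPKM per library, and their part in the levels given here was not tested. In bulk RNA, fewer cells expressing a gene and less RNA per cell cannot be told apart. Depth was estimated from the table at about 21300000, 29000000 and 43300000 reads for replicates 1, 2 and 3. With these depths 3 reads on 1 kb of transcript correspond to 0.141, 0.103 and 0.0693 FPKM.

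All SMADs and most receptors were called above 1 FPKM, and most ligands and antagonists were called below it or listed at 0. With limma's moderated test against 1 FPKM (Benjamini-Hochberg adjusted p under 0.05 over 31736 genes), 30 of the 52 members were called above the level and 14 below it. The other members were CHRD and LTBP1, called neither, and 6 genes listed at 0 in every library and so not tested: BMP4, BMP5, BMP6, INHBB, NOG and FST. The 30 calls above make 65.2% of the 46 members tested, beside 45.5% of all genes tested and 70.6% of the 16750 protein-coding genes tested. The 14 calls below make 30.4% of the members tested, beside 43.7% of all genes and 24.6% of protein-coding genes. Both shares lie between those of the 2 backgrounds and nearer to that of coding genes. The median mean level was 3.02 FPKM over the 52 members and 5.52 FPKM over the 46 tested, beside 1.08 FPKM over all genes tested and 9.13 FPKM over protein-coding genes tested.

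**Figure D1:**
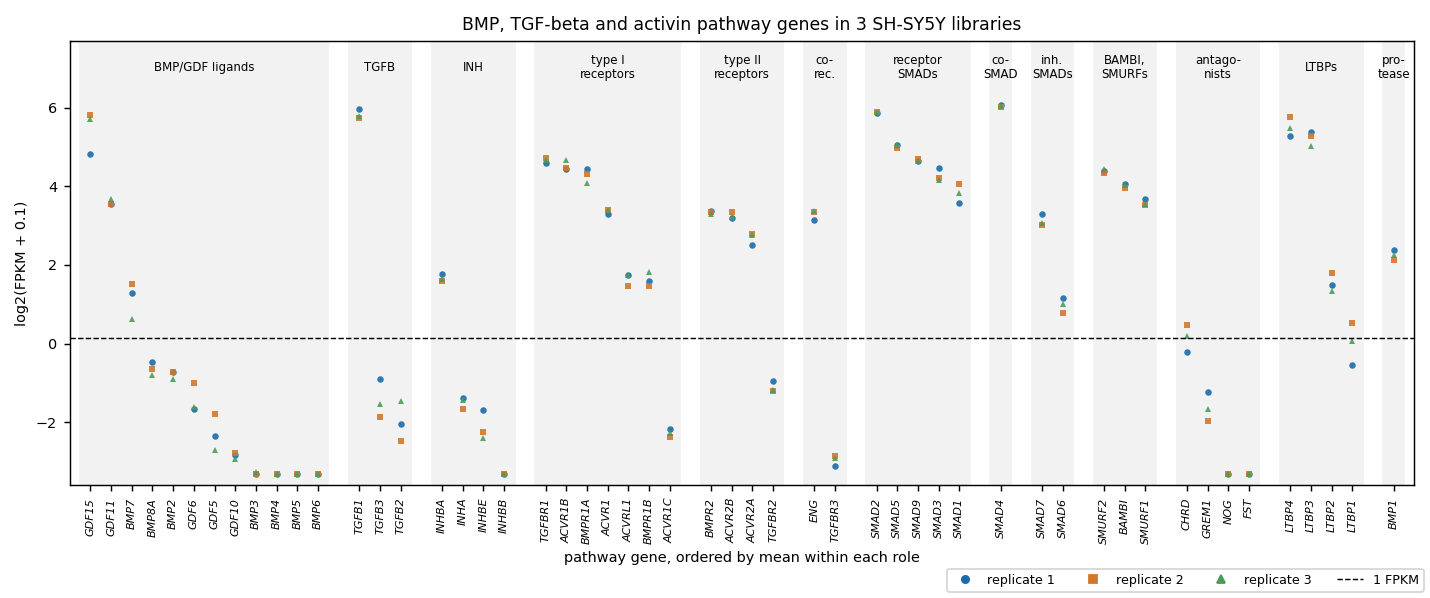
Level of each of the 52 members on the log2(FPKM + 0.1) scale, with 1 point per library and genes ordered by mean within each role; the dashed line marks 1 FPKM. The SMADs all lie above the line, whereas 14 of the 19 ligands lie below it or are listed at 0.

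The count of each role stands beside 70.6% of protein-coding genes tested called above 1 FPKM and 24.6% called below. These shares cover tested genes only, whereas counts here and in the further lists also include genes listed at 0 or not tested. Of tested genes, 33.3% were called above among BMP and GDF ligands, TGF-beta ligands, and activin and inhibin subunits alike. Among the ligands 5 of 19 were called above 1 FPKM, 10 were called below and 4 were listed at 0. The highest was TGFB1 (ENSG00000105329, chr19:41301587-41353911, minus strand, hg38), which encodes the widely acting TGF-beta 1. It read 62.0, 53.3 and 54.8 FPKM in replicates 1, 2 and 3, a mean of 56.7 ± 4.67 and 5.69 ± 0.08 (SE) above the level on the log2(FPKM + 0.1) scale (limma adjusted p = 2.99e-05). Its paralogs were far lower. TGFB2 read 0.141, 0.0800 and 0.265 FPKM, and TGFB3 read 0.437, 0.173 and 0.243 FPKM, both called below in limma (adjusted p = 0.00306 and 0.00656). The ranges of TGFB2 and TGFB3 overlapped, and TGFB1 exceeded both in every library, by 7.82 ± 0.52 log2 over TGFB2 and 7.26 ± 0.38 over TGFB3. With pseudocounts of 1 and 0.01 these were 5.63 and 8.51 over TGFB2 and 5.49 and 7.69 over TGFB3.

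GDF15, a stress-responsive member of the family whose receptor is not one of those described here, was the second ligand. Its levels were 28.1, 56.0 and 52.0 FPKM, so replicate 1 lay well below the other flasks, and the call above held (limma log2 difference 5.31 ± 0.25 SE, adjusted p = 0.000291). GDF11, a ligand that signals through activin receptors and patterns the body axis, was steadier at 11.7, 11.5 and 12.6 FPKM. GDF11 was the lower of the pair in all 3 libraries, with differences of -1.26, -2.27 and -2.03 log2.

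BMP7 was the only BMP ligand of the 52 genes called above the level. It read 2.34, 2.74 and 1.45 FPKM, replicate 3 being the lowest, with a limma log2 difference of 1.00 ± 0.22 SE (adjusted p = 0.0184). This call was lost without replicate 1 (adjusted p = 0.0811), without replicate 2 (adjusted p = 0.0865) and after rescaling to TPM (adjusted p = 0.0649). BMP2 read 0.503, 0.503 and 0.431 FPKM and BMP8A 0.620, 0.539 and 0.476 FPKM, both called below. For BMP2, a gene with 1 annotated transcript, these values correspond to about 36.4, 49.6 and 63.5 reads, well over the 3-read floor. BMP8A is a near-identical copy of BMP8B, which stood at 5.22 ± 0.40 FPKM, and reads could be split between the copies, so the level of either is uncertain.

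The remaining BMP and GDF ligands were called below or listed at 0. GDF6 and GDF5, which act in joint and skeletal patterning, read 0.214 to 0.399 and 0.0520 to 0.191 FPKM across libraries. GDF5 overlaps MIR1289-1, a microRNA gene with 8.49 FPKM in replicate 2 and 0 in the other libraries. GDF10 read 0.0410, 0.0460 and 0.0300 FPKM, about 1.97, 3.01 and 2.93 reads, which is about the 3-read floor or under it. BMP3 was listed at 0 in replicates 1 and 2 and at 0.00400 FPKM, about 1 read, in replicate 3. BMP5 and BMP6 were listed at 0, which in replicate 3, the most deeply sequenced library, allows up to 0.0185 and 0.0269 FPKM for these single-transcript genes. BMP4, which with BMP2 and BMP7 is the BMP associated with the dorsal aorta, was listed at 0 as well. A value of exactly 0 in such a table can also be a failed estimate. The floors cover counting error only.

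Activins are dimers of inhibin beta subunits, and inhibins pair a beta subunit with the alpha subunit INHA. INHBA, the subunit of activin A, read 3.29, 2.92 and 3.01 FPKM and was called above (limma log2 difference 1.53 ± 0.08 SE, adjusted p = 0.000315). INHBB, the subunit of activin B, was listed at 0 in all libraries, a floor of 0.0231 FPKM in replicate 3. INHA read 0.217 to 0.282 FPKM and INHBE 0.0880 to 0.209 FPKM, both called below. INHBA was thus the single subunit of the 4 above the level.

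Receptors were called above in 9 of 11 cases, beside 70.6% of protein-coding genes tested. TGFBR1, the type I receptor for TGF-beta, was the highest at 23.8, 26.1 and 25.4 FPKM. Its partner TGFBR2 (ENSG00000163513, chr3:30606502-30694142, plus strand, hg38), the type II receptor that binds TGF-beta itself, read 0.419, 0.333 and 0.338 FPKM and was called below (limma log2 difference -1.25 ± 0.09 SE, adjusted p = 0.00094). The groups of values were far apart: TGFBR1 exceeded TGFBR2 by 5.52, 5.92 and 5.87 log2 in the 3 libraries (means of 4.26 and 6.08 with pseudocounts of 1 and 0.01), and the ratio of means was 69.2. TGFBR2 made up 1.67%, 1.22% and 1.31% of the summed FPKM of the 4 type II receptors.

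The other type II receptors were all called above. BMPR2, the type II receptor dedicated to BMPs, read 10.2, 10.1 and 9.67 FPKM. ACVR2B and ACVR2A, which serve activins and several BMPs, read 9.02, 9.98 and 9.18 FPKM and 5.54, 6.83 and 6.69 FPKM. ACVR2A minus ACVR2B was -0.56 ± 0.12 log2, negative in 3 of 3 libraries. Exonic sequence of ACVR2A overlaps that of ORC4 on the other strand by 430 bases, and ORC4, a replication origin factor, stood at 44.7 ± 2.79 FPKM.

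Type I receptors of both branches were present. On the BMP side BMPR1A read 21.4, 19.6 and 16.9 FPKM, ACVR1 read 9.78, 10.4 and 10.4 FPKM, and BMPR1B read 2.89, 2.65 and 3.44 FPKM. BMPR1A exceeded BMPR1B by 2.65 ± 0.34 log2. On the activin side ACVR1B read 21.5, 21.9 and 25.4 FPKM, close to TGFBR1 (difference -0.13 ± 0.13 log2). By library the difference was -0.145, -0.251 and -0.003 log2, so the levels were nearly equal in replicate 3. ACVR1C, the receptor also called ALK7, read 0.0910 to 0.122 FPKM and was called below (limma adjusted p = 0.000115). ACVR1 and ACVR1C lie 107.4 kb apart on chromosome 2, on the same strand, at 10.2 and 0.107 FPKM.

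ACVRL1 and ENG, known best as the type I receptor and the co-receptor of endothelial cells, were both called above. ACVRL1 read 3.25, 2.68 and 3.24 FPKM, and ENG, or endoglin, read 8.65, 10.1 and 10.2 FPKM. The 7 endothelial markers summed to 0.186, 0.394 and 0.474 FPKM in the same libraries, with CDH5 and ERG listed at 0 and CLDN5, a tight junction protein, the highest at 0.289 ± 0.114 FPKM. The 7 fibroblast markers summed to 121.2, 111.2 and 109.9 FPKM. The part of cells of either kind in the levels of ACVRL1 and ENG was not tested. TGFBR3, or betaglycan, which presents TGF-beta 2 to its receptors, read 0.0150, 0.0390 and 0.0330 FPKM and was called below. ENG was the higher in every library, by a size that the pseudocount sets, since TGFBR3 lies under it: 6.24 log2 with 0.1, 3.37 with 1 and 8.00 with 0.01. TGFBR3 itself differed 2.6-fold between its highest and lowest library. An antisense gene overlapping 313 exonic bases of ENG stood at 9.33 ± 0.22 FPKM, close to ENG itself; the libraries were made with a stranded kit, but the sources used here do not say whether the quantification used strand.

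All 5 receptor-regulated SMADs were called above 1 FPKM. SMAD2 read 57.8, 59.6 and 59.4 FPKM and SMAD3 read 22.1, 18.4 and 17.9 FPKM, a difference of 1.60 ± 0.19 log2. In the BMP branch SMAD5 read 32.7, 31.1 and 33.1 FPKM, SMAD9 read 25.0, 25.9 and 24.8 FPKM, and SMAD1 read 11.7, 16.4 and 14.1 FPKM. SMAD1 was thus the lowest receptor SMAD in each library and the one that varied most. SMAD4, the common partner, was the highest of all 52 members at 66.6, 64.2 and 65.5 FPKM (limma log2 difference 5.90 ± 0.07 SE, adjusted p = 2.99e-05), and exceeded SMAD2 by 0.15 ± 0.05 log2.

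Levels were also summed over each branch. SMAD1, SMAD5 and SMAD9 together gave 71.6 ± 2.04 FPKM, and SMAD2 and SMAD3 gave 78.3 ± 1.33 FPKM, the higher sum in 3 of 3 libraries, by 10.4, 4.54 and 5.29 FPKM. The BMP-branch type I receptors (BMPR1A, BMPR1B, ACVR1 and ACVRL1) summed to 35.6 ± 1.68 FPKM and the TGF-beta and activin-branch ones (TGFBR1, ACVR1B and ACVR1C) to 48.2 ± 2.74 FPKM. The 4 type II receptors summed to 26.1 ± 1.09 FPKM.

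The negative regulators inside the cell and at its membrane were all called above. SMAD7, which recruits ubiquitin ligases to activated receptors, read 9.79, 7.93 and 8.22 FPKM. SMAD6, which blocks mainly the BMP branch, read 2.12, 1.60 and 1.89 FPKM and was called above with the smallest distance among these genes (limma log2 difference 0.83 ± 0.11 SE, adjusted p = 0.0046). SMAD6 minus SMAD7 was -2.15 ± 0.09 log2. BAMBI, a pseudoreceptor without a kinase domain, read 16.4, 15.5 and 16.3 FPKM. The ubiquitin ligases SMURF2 and SMURF1, which mark SMADs and receptors for degradation, read 20.1 to 21.5 and 11.4 to 12.7 FPKM, and SMURF1 minus SMURF2 was -0.80 ± 0.08 log2.

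SMAD6 and BAMBI are themselves known to be induced by the pathway. Among such genes these were chosen for printing because their windows held a motif searched for here. Promoter windows of 300 bases around RefSeq starts (GRCh38.p14) were found for 44 of the 52 members, 77 windows in all, and searched on both strands for the SMAD palindrome GTCTAGAC and for GGCGCC, a GC-rich BMP-SMAD element; both are palindromic and do not overlap each other. GTCTAGAC was found in 1 member window, that of SMAD6, beside 71 of 35116 windows over all genes (0.202%). GGCGCC was found in 19 member windows of 17 genes (24.7%), beside 19.2% of all windows. A match is a description of the letters only. The sequences run 5′ to 3′ on the plus strand with matches in capitals. That of SMAD6 is chr15:66701986-66702235, the 250 bases before its start, 8 of them in GENCODE exons, with the match beginning 12 bases before the start.
SMAD6: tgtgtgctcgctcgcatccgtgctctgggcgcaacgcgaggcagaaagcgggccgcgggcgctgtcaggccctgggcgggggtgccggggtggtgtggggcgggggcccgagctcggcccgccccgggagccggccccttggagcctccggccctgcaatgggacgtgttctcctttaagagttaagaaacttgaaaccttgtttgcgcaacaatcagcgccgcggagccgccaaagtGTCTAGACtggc
That of BAMBI is chr10:28677271-28677341, the stretch of its window that lies before the first GENCODE exon, with 2 matches beginning 209 and 196 bases before the RefSeq start.
BAMBI: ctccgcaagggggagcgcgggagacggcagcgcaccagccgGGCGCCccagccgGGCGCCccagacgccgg
SMAD7, which the pathway also induces, had neither motif in its 3 windows and is not printed.
The members' windows had a median GC content of 66.0% beside 58.7% over all windows.

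Secreted antagonists, which bind ligands outside the cell, were the lowest role: 0 of 4 were called above. Only 2 of the 4 were tested. CHRD, or chordin, read 0.762, 1.29 and 1.03 FPKM, on both sides of the level (limma adjusted p = 0.959). GREM1, or gremlin, read 0.329, 0.157 and 0.215 FPKM and was called below. NOG, or noggin, a single-transcript gene, was listed at 0 with a floor of 0.0409 FPKM in replicate 3, and FST, or follistatin, the activin antagonist, was listed at 0 too.

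Some latent TGF-beta binding proteins hold the inactive TGF-beta complex in the matrix, and of the 4 genes in this family 3 were called above. LTBP4 read 38.9, 54.3 and 44.5 FPKM and LTBP3 read 41.7, 39.0 and 32.7 FPKM. Which of the 2 was higher depended on the library: LTBP3 minus LTBP4 was 0.10, -0.48 and -0.44 log2 (exact sign-flip p = 0.5). LTBP2 stood at 2.84 ± 0.48 FPKM, and LTBP1 read 0.587, 1.35 and 0.945 FPKM and was called neither (limma adjusted p = 0.678). BMP1, a metalloprotease that cleaves procollagen and chordin and is no BMP by structure, stood at 4.68 ± 0.40 FPKM and was called above.

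**Figure D2:**
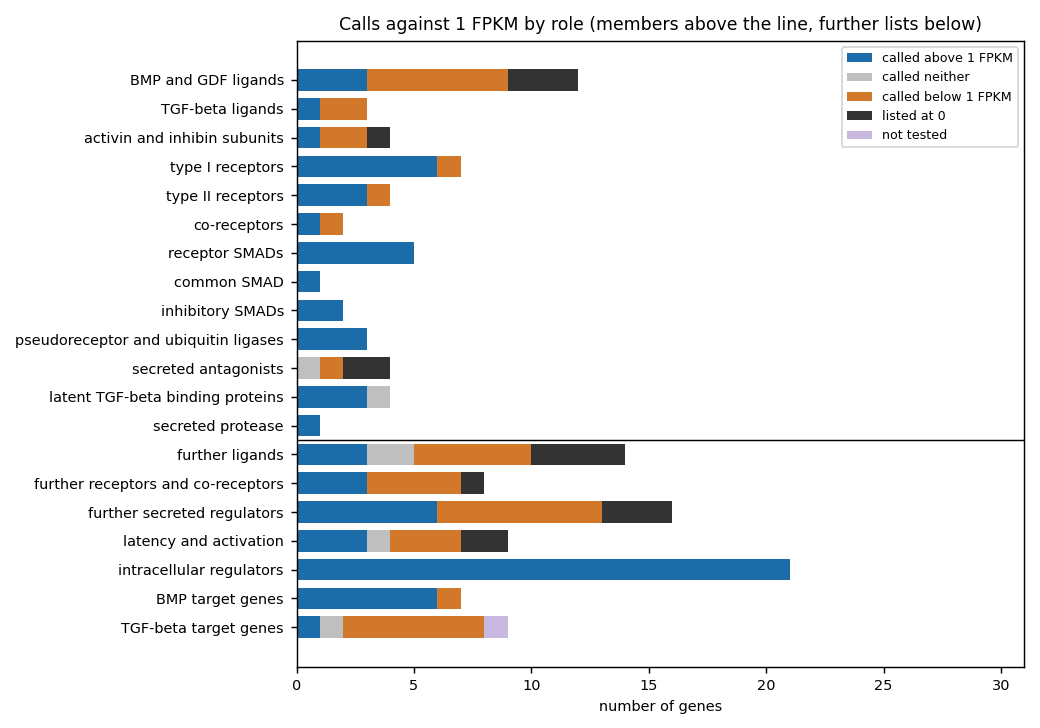
Number of genes in each role called above, neither or below 1 FPKM by limma, listed at 0, or not tested, with the 52 members above the horizontal line and 84 further genes below it. All 5 receptor SMADs and all 21 intracellular regulators are called above, whereas 14 of the 19 ligands among the members are called below or listed at 0.

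Paralogs and partners were then compared within libraries, over 23 pairs. In 22 of the 23 the difference had the same sign in all 3 libraries, which gives an exact two-sided sign-flip p of 0.25, the smallest that 3 libraries allow (0.261 adjusted over the pairs), so no pair could pass a threshold of 0.05. LTBP3 and LTBP4 were the exception. In 5 pairs 1 gene was listed at 0 (BMP4, INHBB, NOG or FST) and no fold is given. Between roles, the median log2 level of the 11 receptors exceeded that of the 19 ligands by 4.91 ± 0.18, and that of the 5 receptor SMADs exceeded the 7 type I receptors by 1.30 ± 0.05. The median of the antagonists minus that of the ligands was -0.80 ± 0.18. The pseudocount set much of 2 of these sizes: with pseudocounts of 1 and 0.01 the antagonists minus the ligands gave -0.13 and -2.22, and the receptors minus the ligands gave 3.10 and 5.38. Each of the 3 role differences had 1 sign in 3 of 3 libraries (exact sign-flip p = 0.25).

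**Figure D3:**
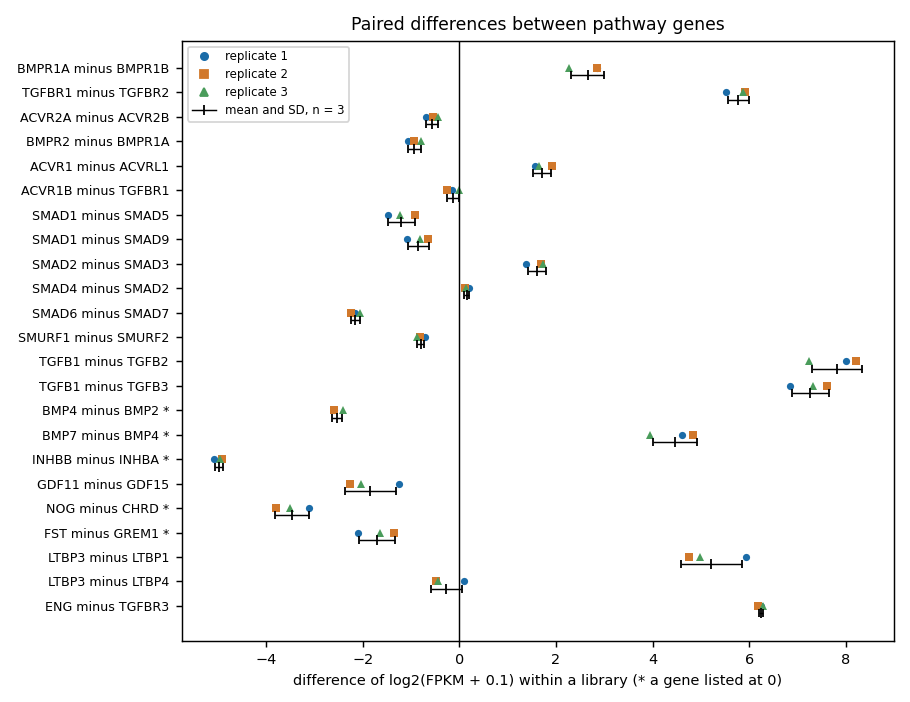
Difference between the genes of 23 pairs within each library on the log2(FPKM + 0.1) scale, with 1 point per library and the mean with SD (n = 3) beneath; an asterisk marks pairs with a gene listed at 0. TGFB1 against TGFB2 and TGFB3, ENG against TGFBR3 and TGFBR1 against TGFBR2 are the farthest from 0, and LTBP3 against LTBP4 is the single pair with points on both sides.

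Ordered by mean, the 46 members with a value ran from SMAD4 at 65.5 FPKM to BMP3 at 0.00133 FPKM. Of the 45 neighbouring steps in this order 15 had a difference of 1 sign in every library and larger than its SD, and 30 did not. SMAD2, TGFB1, LTBP4, GDF15, LTBP3 and SMAD5, from 58.9 to 32.3 FPKM, formed a run in which no neighbours were apart. ACVR1, BMPR2, ENG, ACVR2B and SMAD7, from 10.2 to 8.65 FPKM, formed a further run. The steps from BMP1 to INHBA (0.59 ± 0.05 log2) and from SMAD5 to SMAD9 (0.36 ± 0.08 log2) were among those that were apart.

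The spread between flasks had a similar median in members and in all genes. Over 31 members whose mean reached 1 FPKM the median SD of log2 values was 0.130, beside 0.123 over 16090 genes. GDF15 (SD 0.54, above 92.2% of those genes), BMP7 (0.46) and CHRD (0.35) varied most, and SMAD2 (0.02) and SMAD4 (0.03) least. No replicate stood apart in the pathway: 13 of these members were highest in replicate 1, 11 in replicate 2 and 7 in replicate 3.

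**Figure D4:**
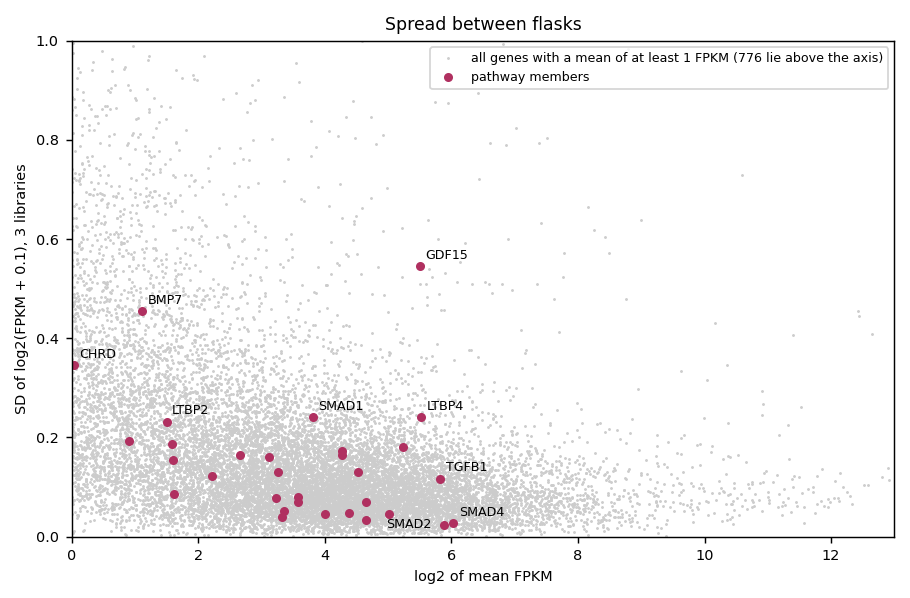
SD of log2(FPKM + 0.1) over the 3 libraries against log2 of the mean FPKM, for the 16090 genes whose mean reached 1 FPKM (grey; 776 lie above the axis) and for the 31 members among them (red). GDF15 and BMP7 lie high, and SMAD2 and SMAD4 lie near the lower edge.

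Other genes of the pathway were counted in 7 further lists with 84 genes. Over these lists 58.9% of the 73 genes tested were called above, beside 45.5% of all genes tested and 70.6% of protein-coding genes tested. All 21 intracellular regulators were called above, from HGS, an endosomal sorting protein that helps present SMADs to receptors, at 199.6 ± 6.54 FPKM, STRAP, a receptor-binding WD-repeat protein, at 154.2 ± 5.64 FPKM, and FKBP1A, which binds type I receptors, at 117.9 ± 4.83 FPKM, to LEMD3, an inner nuclear membrane protein that binds SMADs, at 7.22 ± 0.99 FPKM. Further ligands were called above in 3 of 14 cases: AMH, anti-Müllerian hormone, at 18.9 ± 1.77 FPKM, BMP8B and GDF1. The exons of GDF1 lie wholly within those of CERS1, a ceramide synthase gene on the same strand at 15.5 ± 0.96 FPKM, so the value for GDF1 (2.78 ± 1.31 FPKM) is uncertain. The call of GDF1 (limma adjusted p = 0.0347) was lost without replicate 2 (0.167), without replicate 3 (0.106), under TPM (0.0897), with no filter (0.0811) and with a pseudocount of 0.01 (0.05). AMHR2, the receptor for AMH, read 0, 0.0840 and 0.134 FPKM and was called below.

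Among further receptors and co-receptors 3 of 8 were called above: NEO1, or neogenin, at 49.8 ± 5.38 FPKM, and the BMP co-receptors RGMB at 11.3 ± 1.25 and RGMA at 5.54 ± 0.19 FPKM. RGMB shares 2682 exonic bases with an antisense gene at 11.1 ± 0.17 FPKM. Further secreted regulators were called above in 6 of 16 cases, led by FSTL1, a follistatin-like protein, at 54.2 ± 2.57, the BMP antagonist NBL1 at 20.8 ± 1.87 and CHRDL1, a chordin-like protein, at 8.48 ± 0.63 FPKM. So some secreted antagonists outside the 52 were present although none of the 4 within was called above. NBL1 shares 131 exonic bases with MINOS1, a gene on the same strand at 78.1 ± 2.4 FPKM, and the part of this overlap was not tested. In the latency and activation list 3 of 9 were called above: the integrin subunit ITGAV at 17.3 ± 0.88, the proprotein convertase FURIN at 8.45 ± 0.63 and the fibrillin FBN1 at 2.81 ± 0.57 FPKM. The lowest genes of these 4 lists were listed at 0: the ligands GDF2, GDF3, BMP10 and BMP15, the co-receptor HJV, the secreted regulators CHRDL2, SOST and TLL1, and ITGB6 and FBN2.

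Genes known as targets of each branch were counted in the same way, beside the 45.5% of all genes and 70.6% of protein-coding genes called above. Of 7 BMP target genes 6 were called above, led by the helix-loop-helix inhibitors ID2 at 96.5, 84.2 and 93.1 FPKM, ID3 at 44.3, 46.6 and 43.6 FPKM and ID1 at 18.5, 25.6 and 23.3 FPKM, and MSX1, a homeobox gene, was called below at 0.226 ± 0.106 FPKM. Of 9 TGF-beta target genes 1 was called above, JUNB, an AP-1 subunit, at 9.57 ± 0.95 FPKM. JUNB shares 259 exonic bases with HOOK2, a gene on the other strand at 21.8 ± 5.61 FPKM. Called below were 6 of the 9, beside 43.7% of all genes and 24.6% of protein-coding genes, down to the matricellular gene CTGF at 0.0163 ± 0.0055 FPKM. CDKN1A, the cell cycle inhibitor p21, had a value in replicate 1 alone, 42.4 FPKM, and was not tested. ANGPTL4, an angiopoietin-like secreted protein, read 0.363, 0.630 and 0.921 FPKM and was called neither, and the call below of CDKN2B, a cell cycle inhibitor gene, was lost without replicate 2 (limma adjusted p = 0.0516). These lists are short, many other inputs act on their genes, and the difference between the lists was not tested. They were chosen with earlier results of these data known, and the counts depend on which genes each list holds. SMAD6, SMAD7 and BAMBI, which the pathway also induces, were counted in other roles and were called above.

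**Figure D5:**
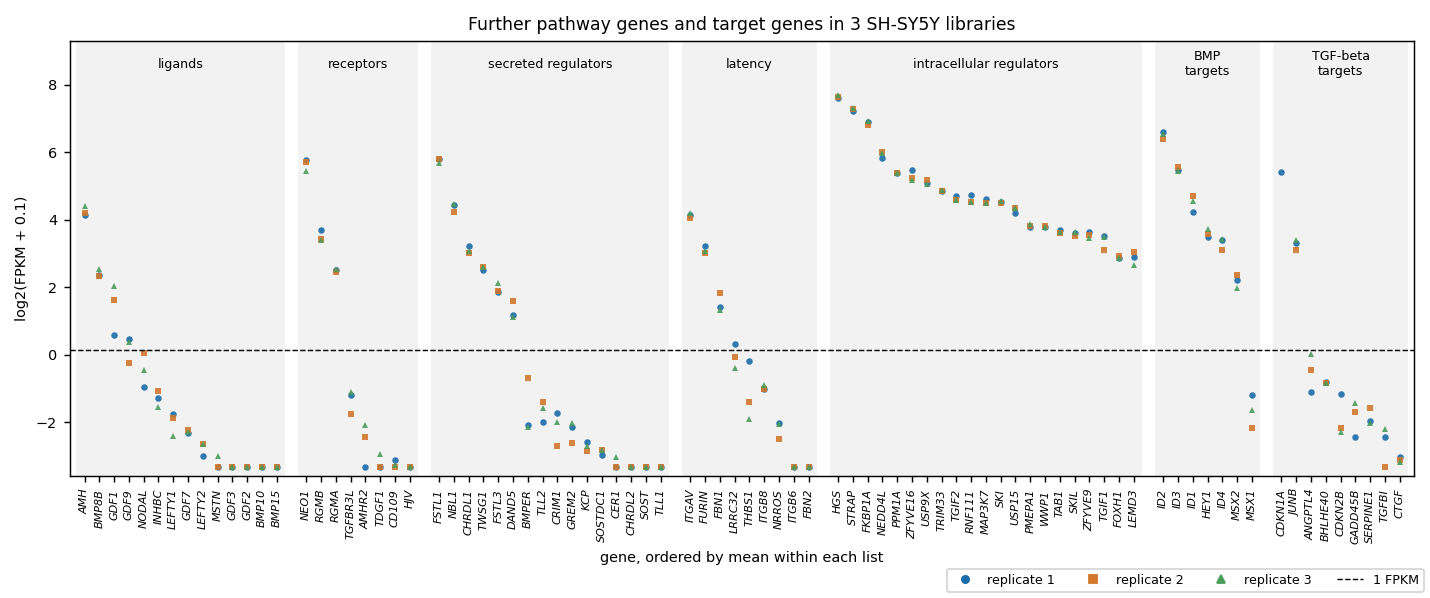
Level of 84 further pathway and target genes on the log2(FPKM + 0.1) scale, with 1 point per library, ordered by mean within each list; the dashed line marks 1 FPKM. The 21 intracellular regulators and 6 of 7 BMP target genes lie above the line, and CDKN1A has a value in replicate 1 only.

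Several members share exonic bases with a higher gene on the other strand. For TGFB1 this is HNRNPUL1, an RNA-binding protein gene at 212.1 ± 9.77 FPKM, with 215 shared bases (6.64% of the exonic bases of TGFB1). For GDF11 it is SARNP at 53.1 ± 2.95 FPKM with 386 bases, for SMURF2 it is CEP95 at 46.4 ± 3.02 FPKM with 167 bases, and for SMURF1 it is TRRAP at 16.2 ± 0.66 FPKM with 735 bases. For BMP8A it is the pseudogene PPIEL, at 0.976, 1.41 and 0.919 FPKM, with 267 bases. INHA and TGFB3 overlap OBSL1 and IFT43, at 51.6 ± 3.95 and 16.8 ± 1.79 FPKM, outside their exons. The part of such overlaps in the levels of these members was not tested.

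A further 4 pairs of members lie within 1 Mb of each other, beside ACVR1 and ACVR1C. ACVRL1 and ACVR1B are 28.3 kb apart on chromosome 12, SMAD6 and SMAD3 280.9 kb apart on chromosome 15, LTBP4 and TGFB1 671.8 kb apart on chromosome 19, and SMAD2 and SMAD7 988.7 kb apart on chromosome 18. Levels differed within some of these pairs, with ACVR1B above ACVRL1 (23.0 against 3.05 FPKM), SMAD3 above SMAD6 (19.4 against 1.87 FPKM) and SMAD2 above SMAD7 (58.9 against 8.65 FPKM). TGFB1 and LTBP4, at 56.7 and 45.9 FPKM, did not differ beyond their spread (0.31 ± 0.35 log2).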

How the data were processed

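RNA of 3 flasks of SH-SY5Y was sequenced as stranded mRNA libraries with single reads of 50 bases, per the labels' protocols. The authors deposited 1 FPKM value per gene and library. Per the submitters' processing notes the tools were Cufflinks 2.2.1, TopHat2 2.1.1, FastQC 0.10.1 and bcl2fastq, and the build was hg38; for their roles, the annotation release and strand setting: not given in the sources used here. Of 60660 rows 57046 matched GENCODE release 29, and 1 row was kept per name.

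The test was limma 3.58.1 (R 4.3.3), an intercept-only moderated fit of log2(FPKM + 0.1) against 1 FPKM transformed alike, for every gene not at 0 in all libraries, two-sided, with a Benjamini-Hochberg adjusted p under 0.05. Distances of low genes are understated on it. Differences within libraries used exact sign-flip tests. Depth was estimated from steps in low values, assuming fragments of 200 bases. At the depths picked, 97.7% to 98.1% lay within 0.1 of a whole read, where a depth fixed in advance gives 20% by chance. Depths were picked for a high share, so the share is no test of them. Python 3.11.15 with numpy 2.4.6, pandas 2.3.3 and matplotlib 3.10.9 did the rest.

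Members, lists, pairs and tests were chosen with earlier results of these data known. Named were every member, the 3 highest and the lowest of further lists, the highest and the lowest marker of each list, and higher genes that overlap members. AMHR2, CDKN2B, the antisense genes beside ENG and RGMB, HOOK2, MINOS1 and the other fibroblast markers called above were named after their values were seen. The same holds for SKIL and PMEPA1. Alternatives were pseudocounts of 1 and 0.01, 3 rescalings, levels of 0.5 and 5 FPKM, other filters, a count with no test, and each library left out.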

Additional observations from a re-analysis of the deposited data

How the results depend on the processing

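At a level of 5 FPKM in place of 1 FPKM, 22 members were called below in place of 14. At that level the log2 difference changed sign for BMP7 (-1.21), INHBA (-0.69), BMPR1B (-0.73), ACVRL1 (-0.70), SMAD6 (-1.38), CHRD (-2.20), LTBP2 (-0.81) and BMP1 (-0.10), and at 0.5 FPKM it did for BMP8A (0.10) and LTBP1 (0.76), which follows from the moved level. BMP2 and TGFB3 were no longer called below at 0.5 FPKM. CHRD, called neither, changed sign under TPM (-0.43) and lay between -0.15 and 0.19 with each library left out. LTBP1, called neither, changed sign under TPM without short and mitochondrial genes (0.22) and lay between -0.38 and 0.16 with each library left out, being above 0 without replicate 1. The 23 pair and 3 role differences kept their direction, but not their size where a gene lies near or under the pseudocount, under both pseudocounts and with each library left out. The 2 TPM rescalings shifted all genes by -0.54 to -0.46 and by 0.37 to 0.38 log2. With no filter the 6 members listed at 0 were tested and 20 members were called below, and over all genes the calls below numbered 40037 with no filter, 13853 as reported and 5921 with a mean of at least 0.1 FPKM. With 3 libraries of 1 line and no second condition, levels describe this culture alone, and members with values near 3 reads cannot be ranked.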
